A study of Mus musculus with 75 samples.

Results

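Hyaluronan is a long sugar polymer of the extracellular matrix that is spun out through the plasma membrane by hyaluronan synthases and is held at the cell surface by its receptor CD44. TSG-6 (encoded by Tnfaip6) and versican (Vcan) bind the polymer, and pentraxin 3 (Ptx3) binds heavy chains of inter-alpha-inhibitor that are carried on it. Such proteins link the chains of the polymer into a matrix to which leukocytes can adhere in inflamed tissue. Fibroblasts make this matrix, and inflammatory cytokines such as tumor necrosis factor (TNF) act on several of its genes, in part through the NF-kB transcription factors, of which RelA is a subunit with C-terminal transactivation domains. The 6 genes described here are the synthases Has1 and Has2, the receptor gene Cd44, and Tnfaip6, Ptx3 and Vcan, whose proteins bind the polymer or the heavy chains on it. They were chosen by function from 45706 gene entries, with earlier results of these data known. All 6 passed the filter on low counts. The shares of all genes given beside their counts are therefore a description only.

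RNA sequencing counts came from mouse embryonic fibroblasts (C57BL/6) in which the genes of p53, c-Rel and RelA are all deleted, so every construct, RelA-WT included, was studied without p53 and c-Rel. A pBABE-puro retrovirus carried no insert (EV), a RelA mutant or wild-type RelA (RelA-WT), and the RelA measured is therefore made from a virus and not from its own gene. The mutants with 2 libraries at each time were RelA-dTAD and RelA-dTA1. The construct names are used as labelled and are not spelled out there. Those with 1 library at each time were RelA-DB and RelA-dCterm, the combinations RelA-TA2_CI_S467A-dTA1 and RelA-TA2_CI-dTA1, and the mutants RelA-TA2_CI_S467A, RelA-TA2_S467A and RelA-TA2_CI. Cells of every construct spent the night in 0.5% serum and then received TNF at 10 ng/ml, and RNA was taken at 0, 0.5, 1, 3 and 8 h. The 75 libraries were deposited as 2 sets. EV, RelA-dTAD, RelA-dTA1 and RelA-WT have 1 library per time in each set, RelA-DB and RelA-dCterm are in set 1, and the other mutants are in set 2. No library without TNF was taken after 0 h, so time in culture and TNF cannot be told apart.

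Set 1 held 4422396 to 6915919 counted reads per library and set 2 held 10440202 to 22908738. Rela averaged 16.1 ± 0.820 CPM (reads scaled to a common library total) in EV and 1311 ± 229 CPM in RelA-WT at 0 h (SD, n = 2 each), 658 CPM in RelA-DB, 531 CPM in RelA-dCterm, and 1149 to 1458 CPM in the other RelA constructs. At 8 h it averaged 27.7 ± 3.67 CPM in EV, 5268 ± 1960.5 CPM in RelA-dTAD, 2184 ± 578 CPM in RelA-dTA1 and 1627 ± 205 CPM in RelA-WT (SD, n = 2 each). In single libraries at 8 h it was 1757 CPM in RelA-DB, 1727 CPM in RelA-dCterm, 3831 CPM in RelA-TA2_CI-dTA1, 3849 CPM in RelA-TA2_CI_S467A-dTA1 and 1920 to 2635 CPM in the other 3 mutants. The Rela level thus moved with time and construct, and its part in the results was not tested. All 8 fibroblast markers were expressed, with a summed level of 29588 to 44464 CPM per library, against 1.62 to 5.69 CPM for 5 macrophage and leukocyte markers, 30.2 to 59.6 CPM for 4 endothelial markers and 2.42 to 13.5 CPM for 4 epithelial markers. Ptprc and Adgre1, which define leukocytes and macrophages, reached at most 0.381 and 0.0636 CPM.

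After TNF, 3 of the 6 genes changed in EV, the cells without RelA, and 5 of them in RelA-WT. In EV, Cd44, Has1 and Has2 changed at some time after TNF, where 42.7% of the 13665 genes tested changed. In RelA-WT these 3 changed with Tnfaip6 and Ptx3, where 31.2% of all genes changed. The responses of EV and RelA-WT themselves differed for Cd44, Has1 and Has2, where 16.6% of all genes differed. These 3 genes rose in both kinds of cells but on different schedules: they were highest at 8 h in EV and at 1 or 3 h in RelA-WT. A call here is a Benjamini-Hochberg adjusted p under 0.05 over all genes in edgeR's quasi-likelihood test, taken jointly over the 4 TNF times against 0 h of the same construct. CPM are shares of the RNA of a culture, so fewer expressing cells and less RNA per cell cannot be told apart. With the set added to the model as a block, 4 genes were called in EV, with Tnfaip6, and 5 in RelA-WT, and 5 responses differed, with Tnfaip6 and Ptx3. Over all 13665 genes, the block called 8447 in EV, 7458 in RelA-WT and 4837 differences.

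The 6 genes lay on very different levels before TNF. Per kilobase of exon in RelA-WT at 0 h (sets 1 and 2), Ptx3 had 86.0 and 36.3 CPM, Cd44 31.6 and 32.9 CPM, and Vcan 24.4 and 39.2 CPM, so that the range of Vcan overlapped those of the other two. Tnfaip6 followed with 6.26 and 5.33 CPM per kilobase, Has2 with 4.03 and 3.73, and Has1 with 0.0764 and 0.0376. At 3 h of TNF in RelA-WT, Ptx3 had 313 and 200.4 CPM per kilobase, Cd44 144 and 125, Vcan 25.0 and 38.6, Tnfaip6 24.5 and 15.9, Has2 21.0 and 16.5, and Has1 0.576 and 0.549. Tnfaip6 and Has2 did not differ beyond their spread in this order at 3 h, and Has1 was far below the others at both times.

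**Figure D1:**
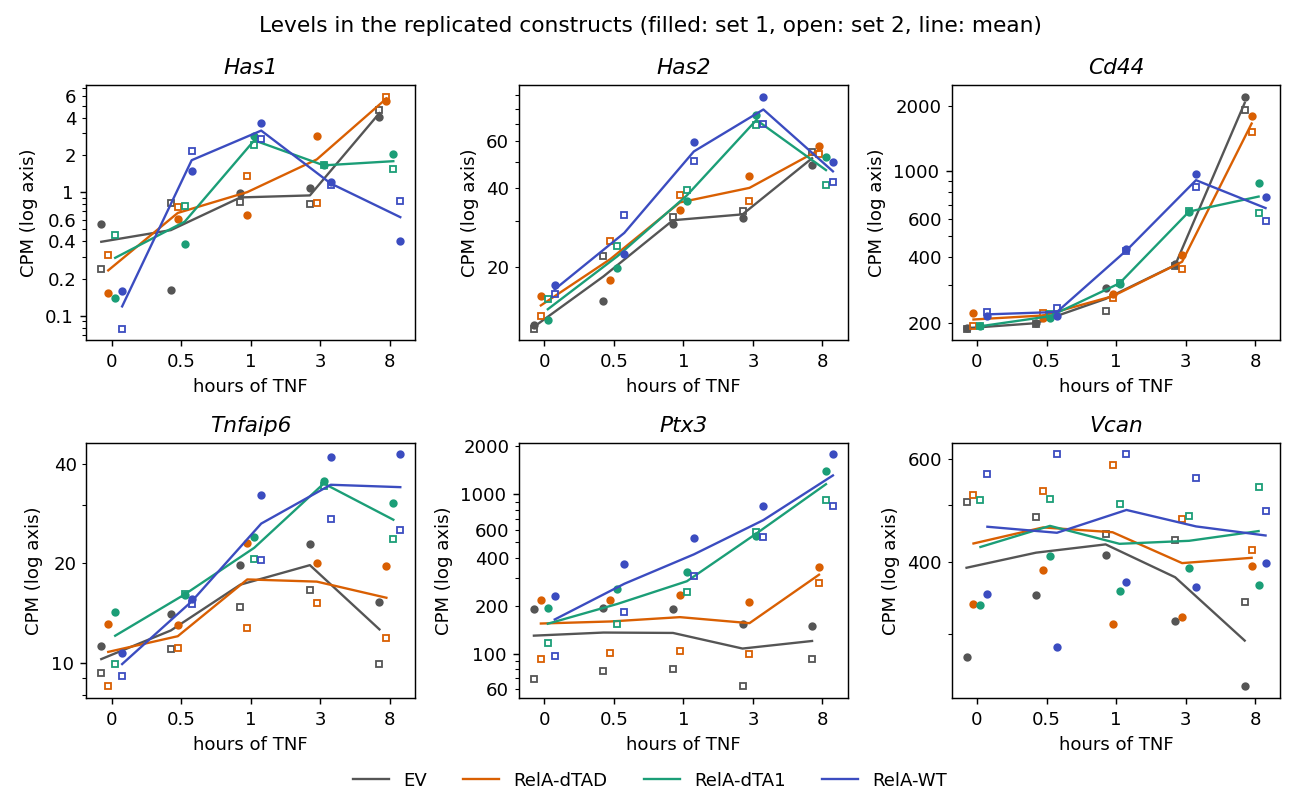
CPM on a log axis against hours of TNF for each gene in EV, RelA-dTAD, RelA-dTA1 and RelA-WT. Filled circles are set 1, open squares set 2, and lines join the means of 2 libraries; Cd44 in EV and RelA-dTAD reaches 1512 to 2209 CPM at 8 h, above the 590 to 885 CPM of RelA-dTA1 and RelA-WT, while Ptx3 in EV lies between 62.3 and 193 CPM.

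Before TNF, none of the 6 genes differed between EV, RelA-dTAD or RelA-dTA1 and RelA-WT in edgeR's test, where 0.563%, 0.0293% and 0% of all genes did, and DESeq2 also called 0. At an unadjusted p under 0.05, 1 gene differed in EV, Has2, with 12.0 and 11.6 CPM in EV and 17.1 and 15.8 CPM in RelA-WT (sets 1 and 2; log2 difference −0.49 ± 0.21 SE, adjusted p = 1). In RelA-dTAD and RelA-dTA1, 0 genes reached that unadjusted level.

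Has2 encodes the hyaluronan synthase that makes most of the polymer in mouse embryos. Its gene lies at chr15:56665627-56694539 of mm10, minus strand (ENSMUSG00000022367.7). In EV it had 12.0 and 11.6 CPM at 0 h (sets 1 and 2), 29.1 and 31.1 CPM at 1 h, 30.7 and 32.7 CPM at 3 h, and 48.7 and 54.9 CPM at 8 h. In RelA-WT it had 17.1 and 15.8 CPM at 0 h, 59.5 and 50.4 CPM at 1 h, 88.9 and 69.8 CPM at 3 h, and 50.2 and 42.1 CPM at 8 h. EV thus climbed in steps to 8 h, while both RelA-WT libraries were highest at 3 h and lower again at 8 h, and the 2 constructs did not overlap at 1 and 3 h but did at 8 h. The log2 change from 0 h was 1.43 ± 0.20 in EV and 2.28 ± 0.20 in RelA-WT at 3 h (SE; adjusted p = 1.23e-04 and 9.54e-09), and 2.17 ± 0.20 in EV and 1.49 ± 0.20 in RelA-WT at 8 h (adjusted p = 6.15e-09 and 4.58e-06). The courses of EV and RelA-WT differed over the 4 times (adjusted p = 0.00247), though at no single time: the difference was −0.85 ± 0.28 at 3 h (adjusted p = 0.127) and 0.69 ± 0.28 at 8 h (adjusted p = 0.103). Without EV of set 2 the adjusted p was 0.0624 for the joint difference and 0.0513 for the change in EV at 3 h. An antisense gene, Has2os, shares exon sequence with Has2 and had 1254 reads over the 75 libraries. The counting is not stated to have used strand, so reads of the overlap cannot be assigned.

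Has1, a synthase gene that is often induced by cytokines in fibroblasts, lies at chr17:17843328-17855188, minus strand (ENSMUSG00000003665.6). It was the rarest of the 6 genes, with 0 to 90 reads per library and a median of 12, so its values carry large counting errors. In EV it had 4 and 3 reads at 0 h (sets 1 and 2), 1 and 13 reads at 0.5 h, 5 and 10 reads at 1 h, 6 and 10 reads at 3 h, and 17 and 45 reads at 8 h. In RelA-WT it had 1 and 1 reads at 0 h, 8 and 29 reads at 0.5 h, 19 and 33 reads at 1 h, 6 and 12 reads at 3 h, and 2 and 11 reads at 8 h. These are 4.06 and 4.66 CPM in EV at 8 h, against 0.405 and 0.850 CPM in RelA-WT, and 0.977 and 0.835 CPM in EV at 1 h, against 3.62 and 2.67 CPM in RelA-WT. The order of the constructs was therefore opposite at 1 and 8 h, with no overlap at either time. By summed reads, the level in EV was 0.297 times that in RelA-WT at 1 h (95% exact interval 0.155 to 0.536) and 6.16 times at 8 h (3.35 to 12.2). Against its own 0 h, Has1 stood 12.6 times higher in EV at 8 h (5.76 to 32.6) and 28.1 times higher in RelA-WT at 1 h (7.39 to 238); the RelA-WT value rests on 2 reads in all at 0 h. These intervals cover counting error only. Has1 was called in EV (adjusted p = 1.54e-05), in RelA-WT (1.03e-04) and for the difference between their courses (2.19e-04).

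The proximal promoter of Has1 holds 1 copy of the CRE element TGACGTCA (both strands searched), which 1.55% of 32851 RefSeq promoters carry in the 250 bases before the start. It begins 83 bases before the start in RefSeq, on GRCm38.p6, minus strand, and was looked for after the sequence had been read. Whether the element bears on the level of Has1 was not tested. The stretch at chr17:17855253-17855282 is shown, with the element in capitals.
Has1: cagacttgtccTGACGTCAgccctcctcca

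Cd44 encodes the main surface receptor for hyaluronan, which also ties the polymer to the actin cytoskeleton. It lies at chr2:102811141-102901665, minus strand (ENSMUSG00000005087.15). In EV it had 189.8 and 188 CPM at 0 h (sets 1 and 2), 289 and 226 CPM at 1 h, 374 and 364 CPM at 3 h, and 2209 and 1921 CPM at 8 h. In RelA-WT it had 214 and 223 CPM at 0 h, 436 and 427 CPM at 1 h, 973 and 845 CPM at 3 h, and 761 and 590.4 CPM at 8 h. EV was below RelA-WT at 1 and 3 h and above it at 8 h in both sets, with no overlap at these times, and most of the rise in EV fell between 3 and 8 h. The log2 change from 0 h was 0.98 ± 0.14 in EV and 2.06 ± 0.14 in RelA-WT at 3 h (SE; adjusted p = 1.40e-04 and 2.68e-10), and 3.49 ± 0.14 in EV and 1.63 ± 0.14 in RelA-WT at 8 h (adjusted p = 3.95e-14 and 7.54e-09). The response of EV minus that of RelA-WT was −1.09 ± 0.20 at 3 h (adjusted p = 0.00111) and 1.86 ± 0.20 at 8 h (adjusted p = 3.55e-07), where 2.8% of all genes were called lower in EV at 3 h and 9.67% higher in EV at 8 h. Against 0 h, 3.02% of all genes were called higher in EV and 10.5% in RelA-WT at 3 h, and 25.6% in EV against 15.8% in RelA-WT at 8 h, so late rises were common in both.

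Tnfaip6 encodes TSG-6, which transfers heavy chains of inter-alpha-inhibitor onto hyaluronan. It lies at chr2:52038009-52056686, plus strand (ENSMUSG00000053475.5). In EV it had 11.2 and 9.31 CPM at 0 h (sets 1 and 2), 19.7 and 14.7 CPM at 1 h, 22.8 and 16.6 CPM at 3 h, and 15.3 and 9.94 CPM at 8 h. In RelA-WT it had 10.7 and 9.11 CPM at 0 h, 32.2 and 20.5 CPM at 1 h, 41.9 and 27.1 CPM at 3 h, and 42.7 and 25.2 CPM at 8 h. EV was back near its starting level at 8 h while RelA-WT stayed high, and the constructs did not overlap at 1, 3 and 8 h. With the set as a block, edgeR's joint change in RelA-WT had adjusted p = 4.8e-11. The fits below with a set left out had no block. The change in RelA-WT was 1.81 ± 0.34 on the log2 scale at 3 h and 1.77 ± 0.34 at 8 h (SE; adjusted p = 4.19e-04 and 3.42e-04). In EV it was 0.94 ± 0.34 at 3 h and 0.30 ± 0.36 at 8 h (adjusted p = 0.128 and 0.512), and the EV course was not called (joint adjusted p = 0.128), though it was with the set as a block (1.03e-04). The joint difference between the courses of EV and RelA-WT had adjusted p = 0.226, and 4.71e-04 with the block. At 8 h the difference was −1.47 ± 0.49 (adjusted p = 0.0399), where 7.9% of all genes were called lower in EV, and leaving out either library set of EV or of RelA-WT gave 0.0606 to 0.213. The RelA-WT call itself gave way to adjusted p = 0.0868 without RelA-WT of set 1.

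In the 250 bases before the RefSeq start, Tnfaip6 was the only member with an AP-1 element, TGANTCA on either strand, of the 5 with an entry in the promoter table (GRCm38.p6). This element is in 6.75% of the 32851 promoters. It begins 142 bases before the RefSeq start. Whether the element bears on the level of Tnfaip6 was not tested. The stretch before the start of the gene as annotated for the counts, chr2:52037863-52038008 on the plus strand, is shown with the element in capitals.
Tnfaip6: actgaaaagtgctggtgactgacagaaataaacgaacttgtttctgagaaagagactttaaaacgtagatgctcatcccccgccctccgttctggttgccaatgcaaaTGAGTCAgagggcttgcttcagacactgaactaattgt

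Ptx3 encodes the long pentraxin, a soluble pattern receptor that binds the heavy chains on hyaluronan. It lies at chr3:66219910-66225805, plus strand (ENSMUSG00000027832.5). In EV it had 190.5 and 68.9 CPM at 0 h (sets 1 and 2), 189.6 and 80.2 CPM at 1 h, 153 and 62.3 CPM at 3 h, and 148 and 92.1 CPM at 8 h. In RelA-WT it had 231 and 97.3 CPM at 0 h, 367 and 182 CPM at 0.5 h, 533 and 306 CPM at 1 h, 839.9 and 537 CPM at 3 h, and 1785 and 841 CPM at 8 h. EV stayed between 148 and 193 CPM in set 1 and between 62.3 and 92.1 CPM in set 2, and RelA-WT climbed at every step in both sets, without overlap at 1, 3 and 8 h. Set 1 lay above set 2 at most points, with a median ratio of 2.07 over 20 pairs of libraries. Fits without the set as a block, those with a set left out included, count this offset as spread. With the block, edgeR's joint change in RelA-WT had adjusted p = 7.9e-08. Within the sets, the log2 change in RelA-WT at 8 h was 2.95 in set 1 and 3.11 in set 2. The change in RelA-WT was 2.09 ± 0.63 on the log2 scale at 3 h and 3.01 ± 0.63 at 8 h (SE; adjusted p = 0.0295 and 0.00163), and in EV −0.26 ± 0.64 and −0.07 ± 0.64 (adjusted p = 0.923 and 0.939). The response of EV minus that of RelA-WT was −3.09 ± 0.90 at 8 h (adjusted p = 0.0207), and the joint difference had adjusted p = 0.0897, or 0.0489 in DESeq2 and 2.43e-05 with the set as a block. Without RelA-WT of set 1 or set 2 the joint change in RelA-WT had adjusted p = 0.128 and 0.113. The difference at 8 h had 0.0671 and 0.0995 without these and 0.135 without EV of set 1.

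None of the 5 members with a promoter entry held the kappaB consensus in the 250 bases before the RefSeq start, where 3.90% of the promoters do. When the search was widened to the whole 300 bases of each entry, after the sequences had been read, Ptx3 was found to hold a match that begins 1 base before its RefSeq start, with a second match overlapping it, and 4.51% of the promoters have a match in that window. Whether the match bears on the level of Ptx3 was not tested. The stretch at chr3:66219876-66219905, plus strand of GRCm38.p6, is shown with the match in capitals.
Ptx3: cccaaatccaGGGGAACTCCctcgcgctgt

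Vcan encodes versican, a large proteoglycan whose end domain binds hyaluronan. It lies at chr13:89655312-89742509, minus strand (ENSMUSG00000021614.14). In EV it had 275 and 507 CPM at 0 h (sets 1 and 2), 317 and 436 CPM at 3 h, and 244 and 341 CPM at 8 h. In RelA-WT it had 353 and 567 CPM at 0 h, 362 and 558 CPM at 3 h, and 398 and 489 CPM at 8 h. Set 2 was above set 1 in both constructs at all 5 times, and with the sets read together the constructs overlapped at 0 and 3 h and not at 8 h. Vcan was called in no comparison in the joint test: the change at 8 h was −0.38 ± 0.38 in EV and −0.05 ± 0.38 in RelA-WT on the log2 scale (SE; adjusted p = 0.431 and 0.941). Without the filter on low counts Vcan was called after TNF in EV, RelA-dCterm and RelA-TA2_CI-dTA1 (largest log2 change −0.39, −0.52 and 0.51; adjusted p = 0.00106, 1.29e-04 and 7.54e-04) and for the RelA-dCterm difference (−0.46, adjusted p = 0.0297). The 2 libraries of EV at 8 h had the lowest Vcan level of the 30 libraries of set 1 and of the 45 of set 2.

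In RelA-dTAD, the late peaks of EV were seen for Cd44, Has1 and Has2. In this construct, Cd44, Has1 and Has2 were called, against 39.4% of all genes. With the set as a block 5 genes were called, Tnfaip6 and Ptx3 being added, against 8430 of all 13665 genes. Cd44 had 411 and 353 CPM at 3 h and 1806 and 1512 CPM at 8 h in RelA-dTAD (sets 1 and 2). Has2 had 44.1 and 35.8 CPM at 3 h and 57.5 and 53.9 CPM at 8 h. Has1 had 5.50 and 5.93 CPM at 8 h in RelA-dTAD, the highest values of the 75 libraries, in 27 and 90 reads. Both synthase genes and Cd44 were thus at their highest at 8 h in both libraries of RelA-dTAD.

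The responses of RelA-dTAD and RelA-WT differed for Cd44, Has1 and Has2 (adjusted p = 4.33e-08, 1.75e-04 and 0.0131), where 12.5% of all genes differed. With the set as a block the count was 5, with Tnfaip6 and Ptx3 added, against 4219 of all 13665 genes. For Cd44 the difference between RelA-dTAD and RelA-WT was −1.17 ± 0.20 at 3 h and 1.40 ± 0.20 at 8 h on the log2 scale (SE; adjusted p = 6.59e-04 and 3.16e-05), where 2.5% of all genes were called lower at 3 h and 6.45% higher at 8 h. Rela itself rose in RelA-dTAD by 1.87 ± 0.34 at 8 h (adjusted p = 1.13e-04), a difference of 1.56 ± 0.48 from its change in RelA-WT (adjusted p = 0.0345). For Has1, the level in RelA-dTAD was 0.396 times that in RelA-WT at 1 h (95% exact interval 0.241 to 0.639) and 8.02 times at 8 h (4.51 to 15.5). Leaving out either set of RelA-dTAD or RelA-WT gave adjusted p of 0.0571 to 0.0925 for Has2. The EV and RelA-dTAD comparisons share their RelA-WT libraries.

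Ptx3 lay between EV and RelA-WT in RelA-dTAD at 8 h. It had 216 and 92.9 CPM at 0 h in RelA-dTAD (sets 1 and 2), 211 and 99.5 CPM at 3 h, and 348 and 277 CPM at 8 h. At 8 h RelA-dTAD lay above EV, with 148 and 92.1 CPM, and below RelA-WT, with 1785 and 841 CPM, in both sets. The rise at 8 h in RelA-dTAD was 1.04 ± 0.63 on the log2 scale (adjusted p = 0.189), and 1.18 ± 0.27 with the set as a block (adjusted p = 9.95e-04). The difference between RelA-dTAD and EV was not tested.

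In RelA-dTA1 the same 5 genes were called as in RelA-WT, where 32.9% of all genes were. The same 5 were called with the set as a block, against 7876 of all 13665 genes. Cd44 had 649 and 653 CPM at 3 h and 885 and 643 CPM at 8 h in RelA-dTA1 (sets 1 and 2), Has2 75.7 and 69.2 CPM at 3 h and 52.5 and 40.9 CPM at 8 h, and Ptx3 551 and 584 CPM at 3 h and 1394 and 919.5 CPM at 8 h. Without RelA-dTA1 of set 1, Has1, Ptx3 and Tnfaip6 had adjusted p of 0.121, 0.162 and 0.123, and without set 2 Ptx3 and Tnfaip6 had 0.151 and 0.220. None of the 6 responses differed between RelA-dTA1 and RelA-WT in edgeR's test, where 0.0732% of all genes did, nor in DESeq2, and 2 genes, Has1 and Cd44, had an unadjusted p under 0.05 (0.00741 and 0.00995). The Cd44 difference was −0.29 ± 0.20 at 3 h and 0.37 ± 0.20 at 8 h on the log2 scale, with the same signs as in RelA-dTAD. Has1 at 0.5 h had 2 and 14 reads in RelA-dTA1 and 8 and 29 in RelA-WT, a ratio of levels of 0.350 (95% exact interval 0.182 to 0.645). The ratio was 0.855 at 1 h (0.577 to 1.27) and 1.41 at 3 h (0.773 to 2.665). At 8 h it lay the other way, at 2.26 (1.18 to 4.61), in 39 and 13 summed reads.

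**Figure D2:**
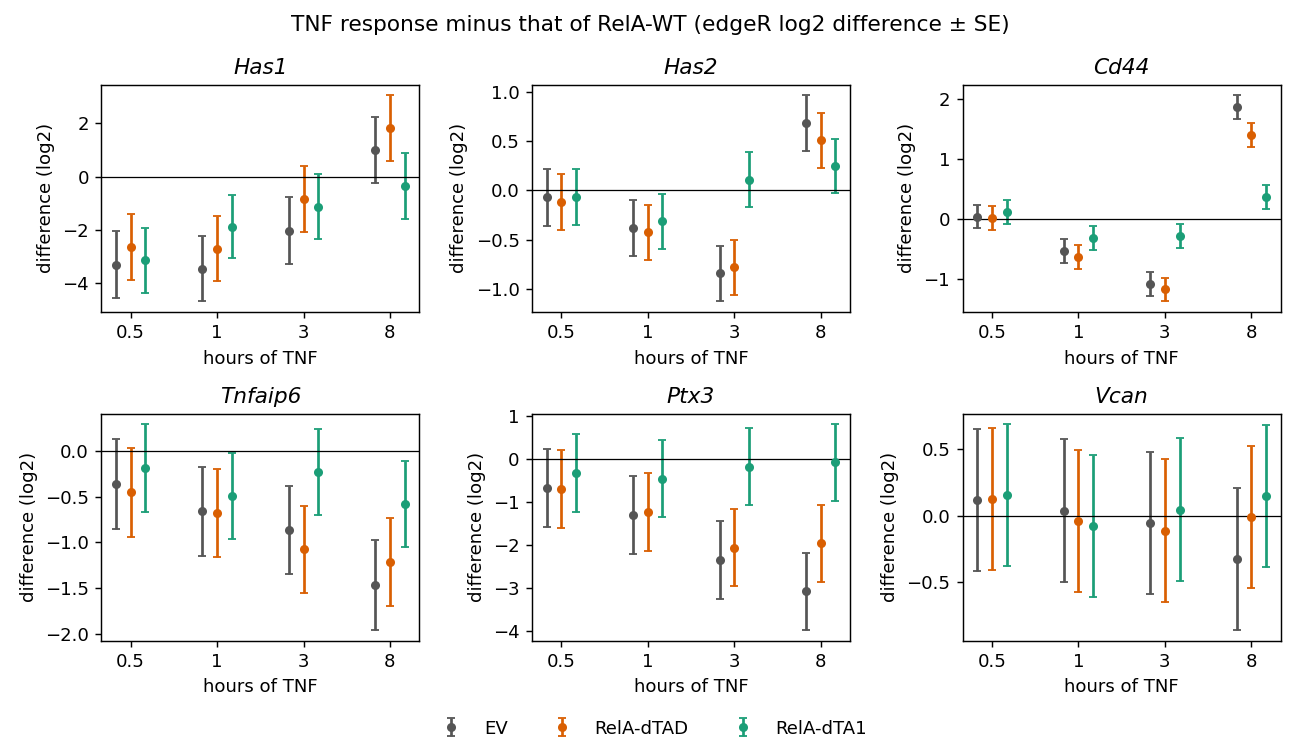
TNF response (log2 change from 0 h) of EV, RelA-dTAD and RelA-dTA1 minus that of RelA-WT, with SE, against hours of TNF. Cd44 in EV and RelA-dTAD lies below 0 at 3 h and above it at 8 h, Tnfaip6 and Ptx3 in both lie below 0 at 3 and 8 h, and the RelA-dTA1 points of Has2, Ptx3 and Vcan at 3 and 8 h lie within 1 SE of 0; the Has1 panel rests on 2 RelA-WT reads at 0 h.

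The 7 mutants with 1 library per time were set against RelA-WT in a fit of all 75 libraries and 15090 genes, whose spread comes from the replicated groups. RelA-DB and RelA-dCterm had the late course of EV. Cd44 reached 2289 CPM in RelA-DB and 2057 CPM in RelA-dCterm at 8 h, against 761 CPM in RelA-WT of set 1. The difference in response was 2.04 ± 0.23 in RelA-DB and 1.69 ± 0.23 in RelA-dCterm on the log2 scale (SE; adjusted p = 2.28e-06 and 2.82e-05), where 5.41% and 4.66% of all genes were called higher. Has2 was also highest at 8 h in both, at 61.1 and 51.9 CPM, against 50.2 CPM in RelA-WT of set 1. Ptx3 stood at 107 CPM in RelA-DB and 163 CPM in RelA-dCterm at 8 h, against 146 and 171 CPM at 0 h. The log2 change at 8 h was −0.44 in RelA-DB and −0.07 in RelA-dCterm, and −0.36 in EV of the same set. None of these was called, though without the filter on low counts the change in RelA-DB had adjusted p = 4.08e-04.

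In RelA-DB and in RelA-dCterm, Cd44, Has1 and Has2 were called after TNF, against 24% and 23.3% of all genes, and with the set as a block Tnfaip6 was called too (adjusted p = 0.0359 in RelA-DB and 0.00935 in RelA-dCterm). The response differed from RelA-WT for these 3 genes in RelA-DB and for Cd44 and Has1 in RelA-dCterm, against 8.95% and 9.15% of all genes. With the set as a block it differed for 5 genes in each, against 3113 and 3234 of all 15090 genes. The block called 5683 and 5615 of all genes after TNF in RelA-DB and RelA-dCterm. Has1 had 0 reads at 0 and 0.5 h and 8 reads at 8 h in RelA-DB, a level at least 3.43-fold higher than the floor of 3 reads allows at 0 h, and 3 reads at 0 h and 21 reads at 8 h in RelA-dCterm, 7.75 times higher (95% exact interval 2.31 to 40.6). Without RelA-WT of set 1 or set 2, the adjusted p for the Has1 difference was 0.123 and 0.158 in RelA-DB and 0.0560 and 0.0832 in RelA-dCterm, and for Has2 in RelA-DB it was 0.0788 and 0.110. In DESeq2 the Has1 difference of RelA-DB had adjusted p = 0.115, and the change of Has1 had adjusted p = 0.0598 in RelA-DB and 0.0505 in RelA-dCterm.

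The mutants RelA-TA2_CI, RelA-TA2_S467A and RelA-TA2_CI_S467A had their highest Cd44 and Ptx3 levels at 3 or 8 h. At 8 h Cd44 was at 667, 567 and 673 CPM in them, in this order, against 590.4 CPM in RelA-WT of set 2, and Ptx3 at 762, 856 and 1059 CPM, against 841 CPM. At 3 h Cd44 was at 663, 787 and 621 CPM, against 845 CPM in RelA-WT of set 2, and Has2 at 61.3, 64.4 and 56.8 CPM, against 69.8 CPM. No response of the 6 genes differed from RelA-WT in any of the 3 in edgeR's test or in DESeq2, against 0%, 0% and 0.0265% of all genes, and 0 genes had an unadjusted p under 0.05 in the joint test. In each of them 3 genes changed after TNF, against 10.1%, 11.7% and 13.8% of all genes: Cd44 and Has2 in all 3, with Has1 in RelA-TA2_CI and RelA-TA2_S467A and Ptx3 in RelA-TA2_CI_S467A. With the set as a block the count was 5 in each, all but Vcan, against 4610, 5623 and 5809 of all 15090 genes. In DESeq2 Has1 had adjusted p = 0.165 in RelA-TA2_CI and 0.112 in RelA-TA2_S467A.

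The 2 mutants whose names join TA2 and dTA1 had the late course of Cd44. In RelA-TA2_CI-dTA1 and RelA-TA2_CI_S467A-dTA1, Cd44 had 399.5 and 413 CPM at 3 h, against 653 CPM in RelA-dTA1 and 845 CPM in RelA-WT of set 2. At 8 h the 2 mutants had 1288 and 1204 CPM, against 643 CPM in RelA-dTA1 and 590.4 CPM in RelA-WT of set 2. Cd44 was the gene whose response differed from RelA-WT in each (joint adjusted p = 1.94e-05 in RelA-TA2_CI-dTA1 and 6.78e-05 in RelA-TA2_CI_S467A-dTA1), against 2.92% and 2.13% of all genes. In RelA-TA2_CI_S467A-dTA1 the largest difference was that at 3 h, −1.16 on the log2 scale, and in RelA-TA2_CI-dTA1 that at 8 h. The difference at 8 h was 1.19 ± 0.23 in RelA-TA2_CI-dTA1 and 0.81 ± 0.23 in RelA-TA2_CI_S467A-dTA1 on the log2 scale (SE; adjusted p = 0.00490 and 0.0988), and 1.05% of all genes were called higher in RelA-TA2_CI-dTA1 at this time. Without RelA-WT of set 2 the first of these had 0.103.

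Ptx3 behaved differently in these 2 mutants at 3 and 8 h. It had 85.8 and 85.4 CPM at 0 h. At 3 h it had 153 and 154 CPM, against 584 CPM in RelA-dTA1 and 537 CPM in RelA-WT of set 2. By 8 h it had 648 and 665 CPM, against 919.5 CPM in RelA-dTA1 and 841 CPM in RelA-WT of set 2. Ptx3 was thus in part higher by 3 h, with a log2 change of 0.83 and 0.85, against −0.14 in EV and 0.10 in RelA-dTAD of set 2. At 8 h it was closer to RelA-WT than in EV and RelA-dTAD of set 2, which had 92.1 and 277 CPM. The Ptx3 difference from RelA-WT at 3 h was −1.24 ± 1.1 and −1.23 ± 1.1 on the log2 scale (SE, adjusted p = 1 each), and the difference from RelA-dTA1 was not tested. After TNF, Cd44, Has1 and Has2 were called in RelA-TA2_CI-dTA1 and these with Ptx3 in RelA-TA2_CI_S467A-dTA1, against 19.6% and 16.5% of all genes. In DESeq2 Has1 and Ptx3 had adjusted p = 0.0603 and 0.0704 in RelA-TA2_CI_S467A-dTA1. With the set as a block, 5 genes changed in each, and the response differed from RelA-WT for 4 and for 3 of the 6, Has1 and Has2 in both and Tnfaip6 in RelA-TA2_CI-dTA1 besides Cd44. Over all 15090 genes, the block called 6689 and 6226 after TNF, and 2054 and 1710 differences.

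**Figure D3:**
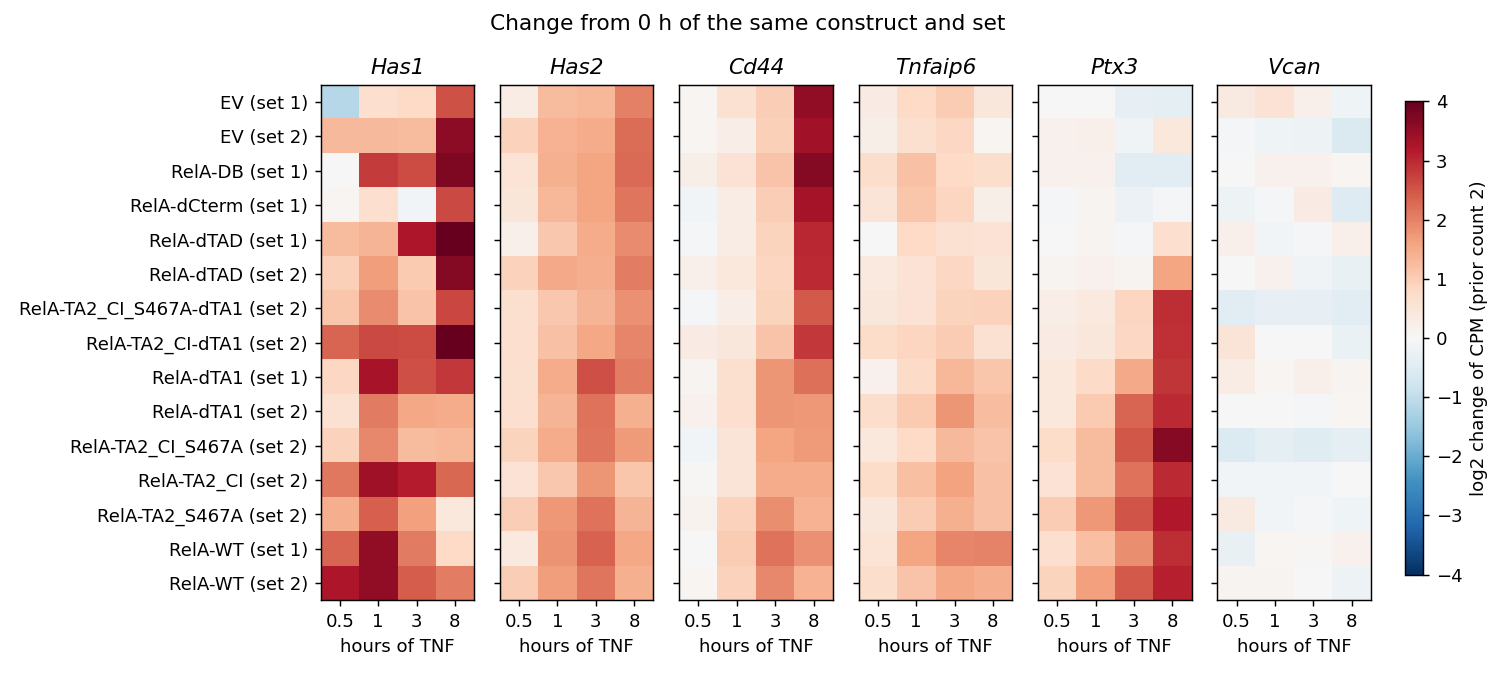
Log2 change of CPM (prior count 2) from 0 h of the same construct and set, in colour from −4 to 4, for the 15 courses (rows) at 0.5, 1, 3 and 8 h (columns). Cd44 is darkest at 8 h in the upper rows from EV to RelA-dTAD and in the 2 dTA1 combinations, Ptx3 lies between −0.45 and 0.42 in the top 4 rows, and Vcan is pale throughout.

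Counted over the 15 courses of construct and set, Cd44 was highest at 3 h in 4 and at 8 h in 11, Has2 at 3 h in 7 and at 8 h in 8, and Has1 at 1 h in 7 and at 8 h in 8. Tnfaip6 was highest at 3 h in 10 courses and at 8 h in 2, and Ptx3 at 8 h in 12. Vcan had no common time, with 2 to 4 courses at each of the 5 times.

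Other genes of the pathway were read from 6 lists, chosen with earlier results of these data known. Among 8 genes of sugar precursor synthesis and the third synthase, all tested, 6 changed in EV, where 42.7% of all genes did, and 4 in RelA-WT, where 31.2% did, all upward by the sign of the largest change. The median of their mean change was 0.33 in EV, against −0.02 over all genes, and 0.14 in RelA-WT, against −0.02 over all genes (log2). Gfpt2, an isoform of the enzyme that opens the hexosamine pathway, rose by 1.17 ± 0.23 in EV at 8 h and by 2.19 ± 0.22 in RelA-WT at 3 h on the log2 scale (adjusted p = 1.68e-04 and 8.37e-08). Uap1, which makes UDP-N-acetylglucosamine, a building block of hyaluronan, averaged 93.1 ± 4.19 CPM in EV and 151 ± 16.5 CPM in RelA-WT at 3 h, and 109 ± 11.8 CPM in EV and 103 ± 11.9 CPM in RelA-WT at 8 h (SD, n = 2 each). The response of EV minus that of RelA-WT at 3 h was −1.70 ± 0.32 for Gfpt2 and −0.76 ± 0.15 for Uap1 (adjusted p = 0.00147 and 0.00229), so both were lower in EV at 3 h. The other 6 genes of the list were not called in the joint test of this difference, and the median over the 8 of the mean difference, EV minus RelA-WT, was 0.15, against 0.0078 over all genes. Gnpnat1, another enzyme of this pathway, rose by 1.22 ± 0.15 in EV and by 0.60 ± 0.15 in RelA-WT at 8 h (adjusted p = 2.70e-07 and 0.00373). Has3, the third synthase, was rare, with 24 reads in EV at 8 h and 34 reads in RelA-WT at 3 h, and was called in both (joint adjusted p = 0.0212 and 0.00408).

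The counts of the next 3 lists stand against 42.7% of all genes called in EV and 31.2% in RelA-WT. Among the 7 of 8 breakdown genes that were tested, 2 were called in EV, of which Hyal2 rose, which encodes a hyaluronidase (log2 change 0.41 ± 0.11 at 8 h, adjusted p = 0.00419). In RelA-WT 1 was called, again Hyal2, which rose (0.30 ± 0.11 at 8 h, adjusted p = 0.0489). Of 12 other hyaluronan-binding proteins 6 were tested, and 1 rose and 1 fell in EV. These were Layn (0.78 ± 0.23 at 8 h, adjusted p = 0.00598) and Hmmr (−1.30 ± 0.35 at 8 h, adjusted p = 0.00315). In RelA-WT 0 of the 6 were called in the joint test. Of 6 genes listed for inter-alpha-inhibitor, its heavy chains and the light chain gene Ambp, 2 were tested. In EV 1 fell, Itih2 (−0.38 ± 0.11 at 8 h, adjusted p = 0.00636), and 0 were called in RelA-WT. The median of the mean changes in EV and in RelA-WT was −0.07 and −0.06 for breakdown and 0.20 and 0.30 for the other binding proteins. It was −0.12 and 0.02 for the inter-alpha-inhibitor genes.

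Of 5 genes for linkers and sheddases of CD44, 2 changed in EV, against 42.7% of all genes, and 2 in RelA-WT, against 31.2%, with a median of −0.03 in EV and 0.07 in RelA-WT. Msn, which encodes moesin, a link from CD44 to actin, rose by 1.23 ± 0.11 in EV and by 0.63 ± 0.11 in RelA-WT at 8 h on the log2 scale (adjusted p = 1.81e-09 and 7.99e-05), a difference of 0.60 ± 0.15 (adjusted p = 0.00659). Its mean level at 8 h was 1524 ± 14.2 CPM in EV and 1167 ± 47.9 CPM in RelA-WT (SD, n = 2 each). Mmp14, a membrane protease that cuts CD44, fell in EV (−0.48 ± 0.10 at 8 h, adjusted p = 4.59e-04). Rdx, which encodes radixin, rose in RelA-WT (0.35 ± 0.09 at 3 h, adjusted p = 0.00873).

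Of 6 genes for proteases that cut versican, all tested, 2 changed in EV, against 42.7% of all genes, and 4 in RelA-WT, against 31.2%, with a median of −0.14 in EV and 0.13 in RelA-WT. Adamts15 averaged 2.46 ± 0.0718 CPM in EV and 19.3 ± 5.49 CPM in RelA-WT at 3 h (SD, n = 2 each), and Adamts4 23.0 ± 1.62 CPM in EV and 70.0 ± 19.4 CPM in RelA-WT at 8 h. The response of EV minus that of RelA-WT was −3.90 ± 0.72 for Adamts15 at 3 h and −1.44 ± 0.35 for Adamts4 at 8 h (log2; adjusted p = 0.00118 and 0.00542). Adamts1 took the opposite sign at 3 h: it averaged 438 ± 76.3 CPM in EV and 148 ± 9.35 CPM in RelA-WT, a difference in response of 1.63 ± 0.24 (adjusted p = 1.05e-04). At 8 h it fell below its 0 h level in both, by 1.52 ± 0.17 in EV and by 0.80 ± 0.17 in RelA-WT (adjusted p = 1.27e-07 and 0.00103). Adamts5 was called in EV (joint adjusted p = 0.0499) and Adamts20 in RelA-WT (0.0312).

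**Figure D4:**
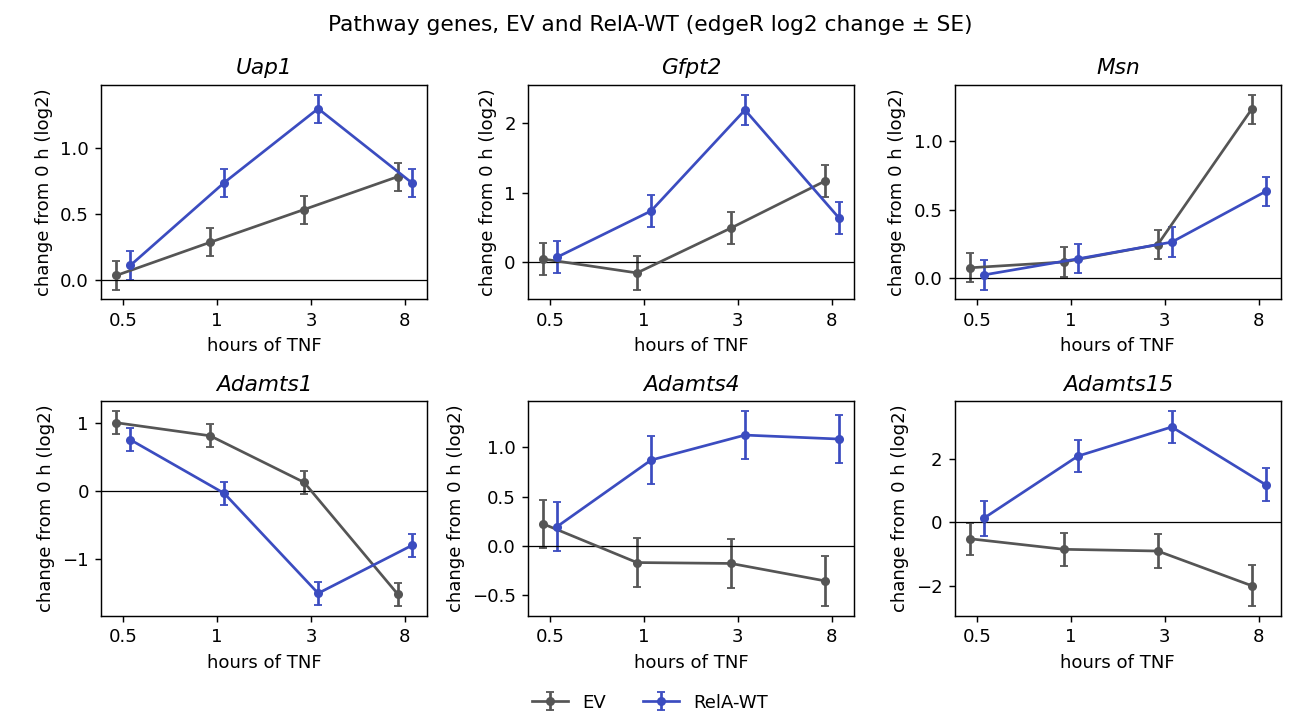
Log2 change from 0 h with SE against hours of TNF in EV (grey) and RelA-WT (blue) for the 6 pathway genes whose response differed between EV and RelA-WT. Uap1 and Gfpt2 peak at 3 h in RelA-WT and at 8 h in EV, Msn rises most in EV at 8 h, and Adamts4 and Adamts15 lie above 0 in RelA-WT and below 0 in EV at 3 and 8 h.

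The genes most like each member were sought by Pearson's r of mean log2 CPM over the 20 groups of EV, RelA-dTAD, RelA-dTA1 and RelA-WT, which share times and sets, and are given as a description. Cd44 was nearest to Itga5 (r = 0.989), an integrin chain that binds fibronectin, then to Gnai3 (0.982) and Fbxw11 (0.982). Has2 was nearest to Uap1 (0.945), which is also on the precursor list, then to Gorasp2 (0.943) and Arid5a (0.934). Has1 was nearest to Rcan1 (0.929), Gm38357 (0.924) and Noct (0.917). Ptx3 was nearest to the chemokine gene Ccl9 (0.983), Hif1a (0.967) and Gpr84 (0.967), and Tnfaip6 to Tfe3 (0.932), Alkbh5 (0.929) and Btg1 (0.924). Vcan reached 0.892 with Ccdc122, 0.886 with Aldh1l1 and 0.877 with Mfsd1. Among the members themselves r was highest between Has2 and Tnfaip6 (0.818), Tnfaip6 and Ptx3 (0.813) and Cd44 and Has2 (0.809).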

How the data were processed

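Polyadenylated RNA of 75 libraries was sequenced with a stranded kit as single 50-base reads, per the labels' protocols. The authors deposited raw read counts per Ensembl gene in 2 tables; the submitters' processing notes name cutadapt 1.9.1, STAR, featureCounts 1.5.0, DESeq2 and mm10, and how strand was handled in the counting is not given in the sources used here. Libraries held 4422396 to 22908738 counted reads. The labels do not say whether replicates were separate cultures, so p-values measure the spread between these samples, which may be technical.

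From these counts, edgeR 4.0.16 (R 4.3.3) fitted 1 mean per construct and time by quasi-likelihood with TMM scaling, after its default filter on low counts. The 40 libraries of EV, RelA-dTAD, RelA-dTA1 and RelA-WT gave 13665 genes and 20 residual degrees of freedom, and all 75 libraries gave 15090 genes; mutants with 1 library per time have no replicate check and are assumed to vary like the replicated groups. Adjusted p-values are Benjamini-Hochberg over all genes of a fit, with a threshold of 0.05. CPM use TMM library sizes. Same-numbered samples (sets) deviated together: in all 190 pairs of groups the correlation of deviations from group means was 0.353 or more (median 0.519, highest 0.661), so the set block is given where it changes a call. Ratios of Has1 reads carry 95% exact conditional binomial intervals, and a count of 0 is set to a floor of 3 reads per library. Alternatives were the block, DESeq2's size factors, no filter, DESeq2 1.42.0, a fit without robust estimation, and each replicate left out. The fit of the 40 libraries was also run on simulated independent counts with no set effect. That run does not cover deviations shared within a set or the mutants with 1 library per time.

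The members and gene lists were chosen with earlier results of these data known. Named genes are the 6 members in every comparison, the 3 genes most like each, and from each list the called genes, at most 4 where more than 5 pass. The result of 1 gene of the breakdown list, called in EV, is not reported here. Promoters are from RefSeq (GRCm38.p6); 5 of 6 members had an entry. The whole promoter window and the CRE element were added after the sequences had been seen.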

Additional observations from a re-analysis of the deposited data

Results flagged for a closer look

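The TNF response differed from that of RelA-WT, by the joint edgeR test of the difference over 4 times, in 13 pairs of gene and construct. For Cd44 the adjusted p was 2.71e-09 in EV, 4.33e-08 in RelA-dTAD, 3.80e-08 in RelA-DB, 1.05e-07 in RelA-dCterm, 1.94e-05 in RelA-TA2_CI-dTA1 and 6.78e-05 in RelA-TA2_CI_S467A-dTA1. For Has1 it was 2.19e-04 in EV, 1.75e-04 in RelA-dTAD, 0.0320 in RelA-DB and 0.00552 in RelA-dCterm. For Has2 it was 0.00247 in EV, 0.0131 in RelA-dTAD and 0.0360 in RelA-DB. All of them use the RelA-WT libraries.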

How the results depend on the processing

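Counts of called members are given under each alternative with the count reported above in brackets. With the replicate block they were 5 (3) for RelA-dTAD, RelA-TA2_CI, RelA-TA2_S467A, RelA-TA2_CI_S467A and RelA-TA2_CI-dTA1 after TNF and for the response differences of EV, RelA-dTAD and RelA-DB, 5 (2) for that of RelA-dCterm, 4 (1) for that of RelA-TA2_CI-dTA1 and 3 (1) for that of RelA-TA2_CI_S467A-dTA1; the block moved no other count of members by over 1.5 times. Without the filter they were 5 (3) for EV, RelA-dTAD, RelA-dCterm, RelA-TA2_CI, RelA-TA2_S467A and RelA-TA2_CI-dTA1 after TNF and for the differences of EV and RelA-dTAD, 6 (2) for RelA-dCterm, 4 (1) for each dTA1 combination and 1 (0) for RelA-dTA1. DESeq2 gave 2 (4) for RelA-TA2_CI_S467A-dTA1 after TNF. Leaving out a replicate gave 3 to 4 (5) for RelA-WT, 2 to 3 (5) for RelA-dTA1 and 1 (3) and 1 (2) for the differences of RelA-DB and RelA-dCterm. The cause was not tested.

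Some uncalled differences from RelA-WT changed sign when a replicate was left out (log2, lowest to highest, adjusted p near 1). Before TNF these were, in EV, Ptx3 −1.25 to 0.41, Tnfaip6 −0.0897 to 0.19 and Vcan −0.74 to 0.13. In RelA-dTAD they were Cd44 −0.18 to 0.0301, Ptx3 −0.81 to 0.66, Tnfaip6 −0.21 to 0.43 and Vcan −0.43 to 0.29, and in RelA-dTA1 Ptx3 −0.59 to 0.66 and Vcan −0.44 to 0.27. After TNF they were Vcan in RelA-dTAD, −0.0203 to 0.39, the change of Vcan in RelA-dTA1, −0.0005 to 0.27, and Cd44 in RelA-TA2_S467A, −0.41 to 0.0124. Each such fit dropped 1 set of 1 construct and kept both sets of the other replicated constructs, without a block. The differences before TNF thus also hold the offset between sets. The median ratio of set 1 to set 2 was 2.07 for Ptx3, 1.33 for Tnfaip6, 0.695 for Vcan and 1.02 for Cd44.

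Over all genes, the block raised the calls after TNF to 8430 (5385) for RelA-dTAD, 7876 (4494) for RelA-dTA1 and 7458 (4264) for RelA-WT, and the response differences to 4837 (2273) for EV, 4219 (1704) for RelA-dTAD and 86 (10) for RelA-dTA1. For mutants with 1 library per time it gave 4610 (1523) to 6689 (2964) calls after TNF, 1.57 to 3.19 times as many. Has1, with a median of 12 reads, is limited by depth.
For the differences of these mutants the block gave 3113 (1350) in RelA-DB, 3234 (1380) in RelA-dCterm, 2054 (440) in RelA-TA2_CI-dTA1, 1710 (322) in RelA-TA2_CI_S467A-dTA1, 58 (4) in RelA-TA2_CI_S467A, 32 (0) in RelA-TA2_CI and 2 (0) in RelA-TA2_S467A, and before TNF 155 (77) in EV, 9 (4) in RelA-dTAD and 4 (0) in RelA-dTA1. No filter gave 86 (10) for the RelA-dTA1 difference, 841 (440), 679 (322), 76 (4), 53 (0) and 19 (0) for the mutants with 1 library in the order just given from RelA-TA2_CI-dTA1 on, and 162 (77), 24 (4) and 7 (0) before TNF. DESeq2 gave 22 (10) for the RelA-dTA1 difference and 5 (0) for RelA-TA2_CI. Leaving out a replicate gave after TNF 3104 to 3436 (5836) in EV, 2944 to 3223 (5385) in RelA-dTAD, 1720 to 2413 (4494) in RelA-dTA1 and 1674 to 2315 (4264) in RelA-WT, and for the differences 1077 to 1443 (2273) in EV, 737 to 1038 (1704) in RelA-dTAD 0 to 6 (10) in RelA-dTA1, 578 to 929 (1350) in RelA-DB, 637 to 898 (1380) in RelA-dCterm, 192 to 222 (440) in RelA-TA2_CI-dTA1, 136 to 166 (322) in RelA-TA2_CI_S467A-dTA1 and 0 to 1 (4) in RelA-TA2_CI_S467A. Before TNF it gave 16 to 65 (77) in EV and 1 to 3 (4) in RelA-dTAD.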
